A study of Mus musculus with 7 samples.

Results

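Exosomes are small vesicles that cells release and that carry proteins, lipids and small RNAs into other cells. The comparison described here set 3T3-L1 cells given exosomes of visceral white fat from obese mice (HFD-vWAT-Exos) against the same cells given exosomes of brown fat from obese mice (HFD-BAT-Exos). It asks whether the depot that an obese exosome came from made a difference to the transcriptome of the cell that received it. Each side was 1 RNA-seq library. All genes with at least 1 CPM (counts scaled to library size) in either library were taken, which gave 12455 of the 34745 genes in the deposited table.

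The 3T3-L1 line derives from mouse embryonic fibroblasts and can be driven to store fat. Per the labels the cells had been differentiated for 8 to 10 days into mature adipocytes and were kept with exosomes for 48 h. All exosome donors were wild-type mice, fed a high-fat diet (HFD, obese) on both sides of this comparison, and the labels give neither their age nor their number. The study describes its exosome donors as age-matched C57BL/6 mice. The other 5 libraries of the series, used here for orientation, were an untreated control, HFD-iWAT-Exos (inguinal white fat) and, from mice on a low-fat diet (LFD, lean), LFD-iWAT-Exos, LFD-vWAT-Exos and LFD-BAT-Exos.

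Visceral white fat stores triglyceride around the inner organs and is the depot most often linked to inflammation and insulin resistance in obesity. Brown fat burns fatty acids for heat through the uncoupling protein UCP1. Exosomes of either depot carry microRNAs, which pair through their seed with messenger RNAs and lower their level or translation in the receiving cell.

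The labelled cell type was checked first. Of 12 adipocyte markers, 8 were below 1 CPM in both libraries. Cfd (adipsin) and Retn (resistin) had 0 counts in both, and Adipoq (adiponectin) had 2 counts with HFD-vWAT-Exos and 7 with HFD-BAT-Exos. The other 4 markers were detected, with Lpl (lipoprotein lipase) at 1151 and 1215 CPM and Pparg (the master factor of fat cell formation) at 12.5 and 13.2 CPM. All 8 fibroblast and preadipocyte markers were above 1 CPM, among them Dlk1 (an inhibitor of fat cell formation) at 1408 and 1380 CPM. Of 5 brown fat markers only Dio2 reached 1 CPM, at 1.30 and 1.33, while Ucp1 had 0 and 4 counts. The defining markers of mature fat cells were thus largely absent from both libraries. In bulk RNA, fewer cells of a type and less RNA per cell cannot be told apart.

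Both libraries had close depths, with 21463539 counts for HFD-vWAT-Exos and 21911499 for HFD-BAT-Exos against a range of 13493560 to 24345291 over the 7 libraries. Where a gene had 0 counts, its level could still be up to 0.1396 CPM in the first and 0.137 CPM in the second, taking 3 counts as the limit. Mitochondrially encoded genes took 2.49% and 2.25% of the counts. Markers of other cell types were scarce. Lymphocyte markers summed to 0.0931 and 0.0914 CPM, blood markers to 0.233 and 0 CPM, endothelial markers to 7.49 and 8.55 CPM and macrophage markers to 47.5 and 52.0 CPM. Markers of epithelium and mesothelium summed to 12.6 and 20.2 CPM, the widest of these gaps in CPM, and those of skeletal muscle to 10.1 and 8.32 CPM. The part of these markers in the results was not tested. Of the other libraries, LFD-vWAT-Exos was unlike all the rest, with 3599 to 3817 genes differing in each of its 6 pairs, so ranges over the other 5 libraries, which include it, are also given without it where it sets them apart.

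With 1 library a side there was no replicate and hence no test, and no difference below could be held against a spread between cultures. The intervals given are exact 95% intervals for counting error only. Genes were called apart if they differed by 2-fold or more (log2 ratio with a prior count of 2 added) and equal levels lay outside this interval. By this rule 207 genes, or 1.66% of those compared, were apart. Of these, 112 were higher with HFD-vWAT-Exos (0.899% of genes compared) and 95 were lower (0.763%). The median log2 ratio over all genes was -0.00, the median of its absolute size was 0.13 and the 95th percentile was 0.62. Most of the transcriptome therefore lay within a narrow band around equality. Genes apart were split almost evenly by count, with 101 under 100 counts summed over both libraries. With 100 or more, 106 of 11447 genes were apart, 49 higher and 57 lower, so the excess of higher genes came from genes with few counts. A change of 4-fold or more was seen for 45 genes and of 10-fold or more for 18.

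**Figure D1:**
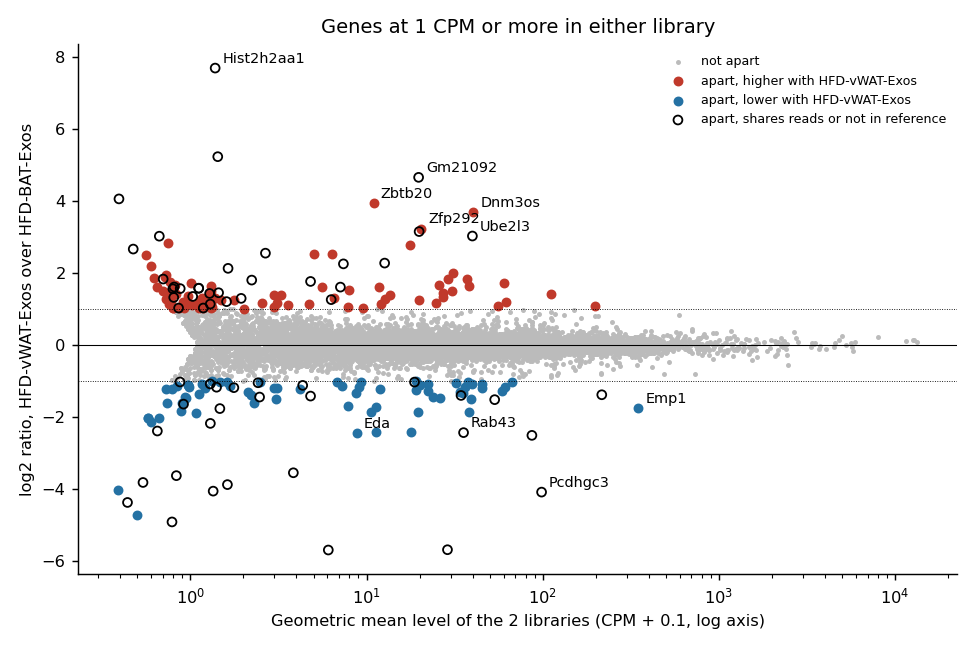
Each point is 1 of the 12455 genes, with its geometric mean level in the 2 libraries (CPM plus 0.1, log axis) against its log2 ratio of HFD-vWAT-Exos over HFD-BAT-Exos. Coloured points are the genes apart, open circles those that share reads with another gene or are not in the reference, and dotted lines mark a 2-fold difference.

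Among all 21 pairs of the 7 libraries, the pair of obese visceral and obese brown exosomes had the fewest genes apart. The pair next to it was HFD-vWAT-Exos with LFD-BAT-Exos, at 213 genes. The 15 pairs without the LFD-vWAT-Exos library ranged from 207 to 644 genes with a median of 288. By the median absolute log2 ratio over genes, however, 5 other pairs were closer than its 0.130, the closest being HFD-vWAT-Exos with LFD-BAT-Exos at 0.107, and 4 pairs had a higher Pearson correlation across genes. HFD-vWAT-Exos differed from the untreated control in 245 genes, with a median of 0.129, and HFD-BAT-Exos in 282, with a median of 0.143. The order of the pairs thus changed with the measure. None of these pairs are replicates, and pairs that share a library are not independent.

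**Figure D2:**
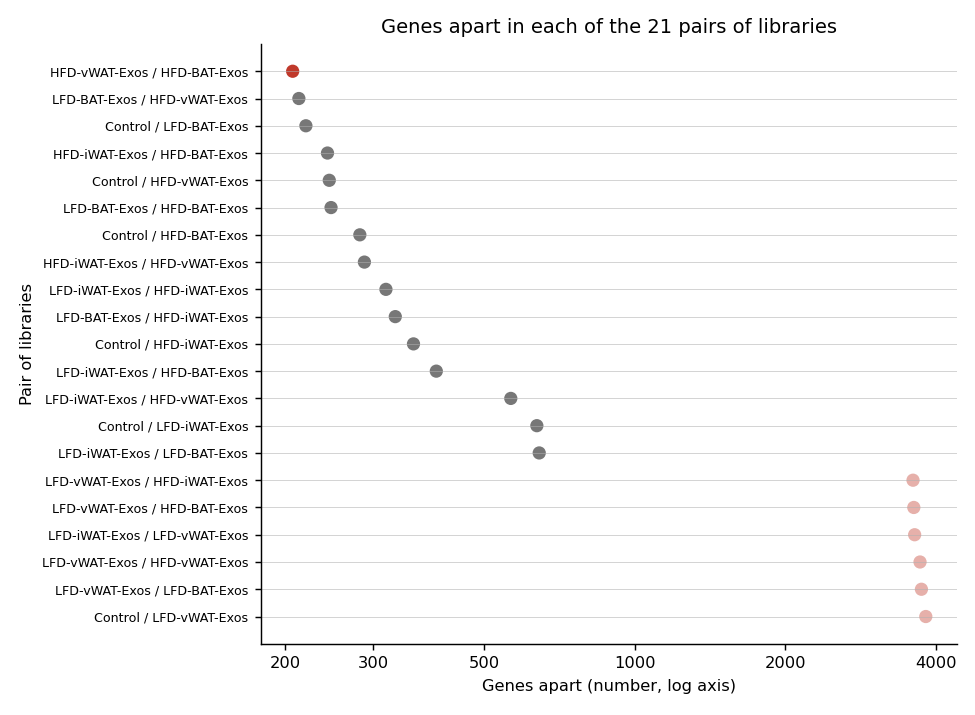
Number of genes apart (log axis) in each of the 21 pairs of libraries, 1 point per pair. The pair of HFD-vWAT-Exos and HFD-BAT-Exos, in red, has the lowest value at 207, and the 6 pairs with LFD-vWAT-Exos, in pink, lie between 3599 and 3817.

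Genes not taken as sharing reads with another gene are described first, with exceptions marked. A gene was taken as sharing reads when at least 20% of its exon bases, or of its 31-base words, also belong to another gene. The genes with the highest ratios that share no such reads were regulators of transcription and a non-coding RNA. Zbtb20 (chr16:42875881-43642602 in GRCm38), a zinc finger repressor that acts in metabolic tissues, had 42.8 CPM with HFD-vWAT-Exos and 2.70 CPM with HFD-BAT-Exos. It was 15.9-fold higher (interval 12.2 to 21.03). Its level was 6.60 CPM in the control, 33.7 with LFD-iWAT-Exos, 43.9 with LFD-vWAT-Exos, 36.5 with LFD-BAT-Exos and 41.9 with HFD-iWAT-Exos. The 2 low libraries for Zbtb20 were thus the control and HFD-BAT-Exos, and the HFD-vWAT-Exos value lay among the 4 other treated ones.

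Dnm3os (chr1:162217623-162225550), an antisense RNA of the Dnm3 locus that is the host of miR-199a and miR-214, had 145 CPM with HFD-vWAT-Exos and 11.2 CPM with HFD-BAT-Exos, a 13.0-fold difference (interval 11.4 to 14.9). It was at 110 CPM in the control and 142 with LFD-BAT-Exos, but at 6.66 with LFD-iWAT-Exos, 14.0 with HFD-iWAT-Exos and 26.3 with LFD-vWAT-Exos. The libraries formed a high and a low set that followed neither diet nor depot. Dnm3, whose gene contains Dnm3os, was at 9.68 and 7.36 CPM.

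Zfp292 (chr4:34803113-34882960), a zinc finger protein, had 62.4 CPM with HFD-vWAT-Exos and 6.58 CPM with HFD-BAT-Exos, a 9.48-fold difference (interval 7.98 to 11.3). Its other 5 libraries were at 59.9 to 131 CPM, and at 59.9 to 67.7 CPM without LFD-vWAT-Exos. C330007P06Rik (chrX:36823737-36874111) had 46.1 and 6.72 CPM, a 6.87-fold difference (interval 5.77 to 8.22), with 42.6 to 48.1 CPM in the other 5. For both genes the HFD-BAT-Exos library alone was low.

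Further genes among the highest ratios were Fam109a, Bola1, Mum1l1 and Ang. Fam109a, an endosomal protein, had 15.3 and 2.56 CPM. Bola1, a mitochondrial iron-sulphur protein, had 12.01 and 2.01 CPM, and Mum1l1 had 61.8 and 15.3 CPM. Ang (angiogenin, a secreted ribonuclease) had 27.7 and 5.67 CPM and was 4.89-fold higher (interval 4.03 to 5.99), but it shares reads with a neighbour and is uncertain. Fam109a was as high with HFD-iWAT-Exos, at 13.9 CPM, and Bola1 with LFD-iWAT-Exos, at 11.5 CPM. Their ratios therefore rest on levels that also occur in libraries of other exosomes.

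The lowest ratios among genes that share no reads included an innate immune receptor. Tlr4 (chr4:66827584-66930284), the receptor for bacterial lipopolysaccharide that also answers to saturated fatty acids, had 10.2 CPM with HFD-vWAT-Exos and 37.5 CPM with HFD-BAT-Exos. It was 3.68-fold lower (interval 3.17 to 4.29). The control had 37.3 CPM, LFD-iWAT-Exos 36.1, LFD-BAT-Exos 33.4, HFD-iWAT-Exos 42.3 and LFD-vWAT-Exos 86.6. HFD-vWAT-Exos was the single low library for Tlr4, below all 6 others.

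Emp1 (chr6:135362545-135383173), a membrane protein of growing cells, had the largest of these losses in CPM, with 189 CPM against 641 CPM and 3.39-fold lower levels (interval 3.27 to 3.51). HFD-iWAT-Exos was equally low at 196 CPM, LFD-vWAT-Exos was at 320, and the control, LFD-BAT-Exos and LFD-iWAT-Exos were at 566, 532 and 748. Eda (chrX:99975606-100400762), the ligand ectodysplasin A, had 3.68 and 20.5 CPM. It was also low in the 3 LFD libraries, at 3.96 to 5.84 CPM, and high in the control and HFD-iWAT-Exos, at 19.2 and 20.6 CPM. Emp1 and Eda thus again took a high and a low level, each shared by several libraries.

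Dnal1, an axonemal dynein light chain, had 7.59 and 41.3 CPM and was low in 1 other library, LFD-vWAT-Exos, at 4.45 CPM. Gm608 had 4.79 and 25.9 CPM, Fam126b 5.44 and 19.9 CPM and 2610001J05Rik 19.9 and 72.3 CPM. In Gm608 and Fam126b the HFD-vWAT-Exos value lay below all 6 others, and 2610001J05Rik was also low with HFD-iWAT-Exos at 21.7 CPM and LFD-BAT-Exos at 20.6 CPM. None of the genes in this group are named in the lists of fat metabolism.

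**Figure D3:**
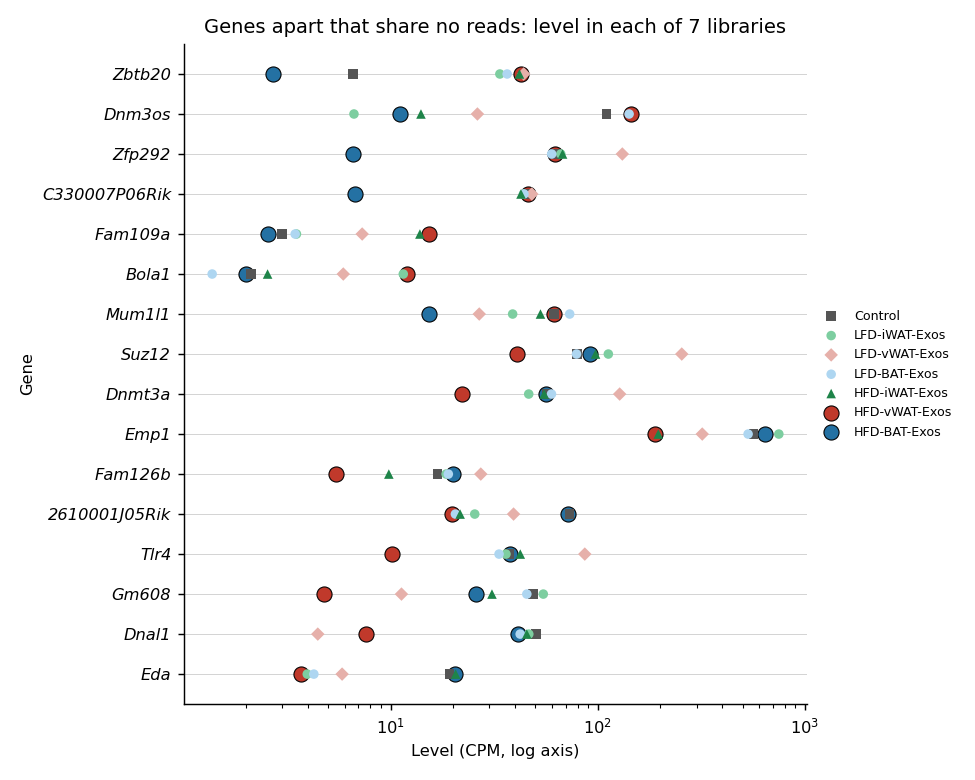
Level (CPM, log axis) of 16 genes apart that share no reads, in each of the 7 libraries, with 1 point per library. HFD-vWAT-Exos (large red) and HFD-BAT-Exos (large blue) are drawn with the other 5 libraries around, between or beyond them, as for Dnm3os with 110 and 142 CPM in some and 6.66 and 14.0 CPM in others, and for Emp1 with 320 CPM in LFD-vWAT-Exos, between both.

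Of 32 listed repressors and chromatin regulators compared, 1 was apart and higher, the repressor Zbtb20, and 2 were apart and lower, beside 1.66% of all genes apart. As this list was chosen with earlier results of these data known, its share apart cannot be read as an enrichment. Dnmt3a, a de novo DNA methyltransferase, had 22.1 and 56.3 CPM, 2.55-fold lower (interval 2.29 to 2.84). Suz12, a core subunit of the Polycomb complex PRC2, had 40.8 and 92.0 CPM, 2.26-fold lower (interval 2.08 to 2.45). Both had their lowest value of all 7 libraries with HFD-vWAT-Exos, the others being at 46.4 to 128 CPM for Dnmt3a (to 59.8 without LFD-vWAT-Exos) and 79.0 to 254 CPM for Suz12 (to 113 without it). The median log2 ratio of the list was 0.11, with 22 members higher and 10 lower.

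Other genes apart at 100 or more counts, chosen after their values were seen, include signalling adaptors. Crk had 182 CPM with HFD-vWAT-Exos and 68.1 CPM with HFD-BAT-Exos, whereas Grb2, another adaptor of receptor tyrosine kinases, had 37.9 and 91.5 CPM. The antiapoptotic genes also differed in direction, with Xiap at 42.9 and 17.0 CPM and Bcl2l1 at 14.3 and 39.5 CPM. Pcyt1a, the rate-limiting enzyme of phosphatidylcholine synthesis, had 109 and 32.9 CPM, and Pdp1, which reactivates pyruvate dehydrogenase, had 54.9 and 15.3 CPM. Pml, the scaffold of nuclear bodies, had 93.7 and 40.8 CPM. The transcription factors Mef2a, Etv6 and Zbtb4 were lower, at 26.3 against 54.3, 12.2 against 29.6 and 6.14 against 20.6 CPM. The secreted guidance protein Ntn1 had 23.0 against 65.9 CPM. The adaptors and the antiapoptotic genes named here thus lay on opposite sides. Xiap was at 14.5 to 83.1 CPM in the other 5 libraries, and Crk reached 276 CPM with LFD-vWAT-Exos. In the control, LFD-iWAT-Exos, LFD-BAT-Exos and HFD-iWAT-Exos, Crk was at 65.1 to 83.9 CPM. Bcl2l1 and Grb2 were as low with HFD-iWAT-Exos, at 13.7 and 33.9 CPM, and Ntn1 was lower still with LFD-iWAT-Exos, at 11.1 CPM. Of all 7 libraries, Mef2a, Etv6 and Zbtb4 were lowest with HFD-vWAT-Exos, and Pcyt1a, Pdp1 and Pml with HFD-BAT-Exos. Pml was also highest with HFD-vWAT-Exos, the other 5 libraries being at 44.5 to 64.9 CPM. Pdp1 was nearly as low with LFD-vWAT-Exos, at 15.9 CPM.

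For the 106 genes apart with 100 or more counts, the other 5 libraries were placed with whichever of the 2 levels was nearer on a log scale. In 17 genes all 5 lay nearer to HFD-BAT-Exos, and in 7 all 5 lay nearer to HFD-vWAT-Exos. In the remaining genes they split, in 19 as 1 against 4, in 21 as 2 against 3, in 25 as 3 against 2 and in 17 as 4 against 1, counting first those nearer to HFD-vWAT-Exos. Without LFD-vWAT-Exos, all 4 lay nearer to HFD-BAT-Exos in 21 genes and nearer to HFD-vWAT-Exos in 14. In most of these genes the other libraries were therefore found on both sides. Over all 207 genes apart, HFD-vWAT-Exos alone lay outside the range of the other 5 in 80, HFD-BAT-Exos alone in 49, both in 18 and neither in 60. Over all genes compared these shares were 16.1%, 10.8%, 6.27% and 66.8%. Without LFD-vWAT-Exos in the range the counts became 74, 51, 50 and 32, and the shares over all genes compared 21.03%, 15.8%, 14.2% and 48.9%.

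Genes that share reads with another gene made up 57 of the 207 genes apart (27.5%) and 1886 of the 12455 genes compared (15.1%). They were 8 of the 15 highest and 7 of the 15 lowest ratios at 100 or more counts, beside 1 gene absent from the reference. For each gene apart, the counts of the genes linked to it by overlap, by shared sequence or by a common name were added. Of the 62 genes apart that had such a partner with counts, 44 differed by less than 2-fold once the partners were added, and 18 still differed by 2-fold or more.

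Pairs of neighbouring gene IDs traded reads while their sum stayed level. Zbtb9 (chr17:26973167-27008376), a zinc finger gene, had 1.02 CPM with HFD-vWAT-Exos and 13.0 CPM with HFD-BAT-Exos, while Ggnbp1 (chr17:27017987-27037624) next to it had 16.0 and 3.29 CPM. Their sum was 17.0 and 16.3 CPM, within a range of 14.2 to 17.0 CPM over all 7 libraries. The control showed the same split as HFD-vWAT-Exos, with 0.452 CPM for Zbtb9 and 14.0 for Ggnbp1, and the other 5 had 12.2 to 13.1 CPM for Zbtb9. An annotated readthrough transcript joins both genes in the reference.

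The complement gene C1s2 occurs under 2 IDs. The ID absent from the reference had 0.745 and 43.5 CPM, the lowest ratio of all genes with 100 counts or more, and the annotated one had 105 and 65.7 CPM. Together they were at 106 and 109 CPM. The 9 Ugt1a genes, which share their last exons and encode enzymes that conjugate bilirubin and drugs, summed to 80.3 and 84.0 CPM, although Ugt1a2 had 0 and 1.83 CPM and Ugt1a5 had 0.0465 and 1.87 CPM. Pet117, at 0.0465 and 4.11 CPM, and Csrp2bp summed to 24.8 and 26.3 CPM. RP23-325D10.3, at 8.52 and 0.137 CPM, summed to 88.8 and 82.4 CPM with Setd1a and Hsd3b7. In these loci the large ratios of single IDs were absent from the locus totals.

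Some shared loci kept a difference after summing. The 22 clustered gamma protocadherins, adhesion proteins spliced from alternative first exons to common last ones, summed to 188 CPM with HFD-vWAT-Exos and 903 CPM with HFD-BAT-Exos. Most of this came from Pcdhgc3 at 23.8 and 407 CPM, Pcdhga2 at 3.91 and 207 CPM and Pcdhgb4 at 36.3 and 208 CPM. The cluster sum was 166 CPM with LFD-iWAT-Exos, 283 with LFD-vWAT-Exos, 535 with LFD-BAT-Exos, 625 in the control and 936 with HFD-iWAT-Exos. Pcdhgc3 had about the HFD-BAT-Exos level in the control (447 CPM) and with HFD-iWAT-Exos (438 CPM), and Pcdhga2 was high in LFD-BAT-Exos (388 CPM). The level of the cluster thus differed widely between libraries, and its members did not vary together.

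Rab43, a GTPase of Golgi traffic, had 15.2 and 82.7 CPM and stayed at 16.4 and 83.0 CPM with its linked gene, against 73.1 to 98.4 CPM for Rab43 in the other 5 libraries. Ube2l3, a ubiquitin-conjugating enzyme, had 114 and 13.9 CPM and, with Ydjc added, 124 and 27.0 CPM, against 12.8 to 16.3 CPM for Ube2l3 in the other 5. Rac1, a GTPase of the cytoskeleton, had 134 and 350 CPM, and 148 and 366 CPM with its partner. The control was similarly low for Rac1, at 127 CPM, and the remaining libraries were at 339 to 482 CPM. Akap2, an anchor of protein kinase A, had 59.1 and 6.58 CPM, and 95.3 and 45.1 CPM with Pakap. For Akap2, LFD-vWAT-Exos was as high at 59.4 CPM. The control, LFD-iWAT-Exos, LFD-BAT-Exos and HFD-iWAT-Exos were at 16.1 to 40.4 CPM. Rab43 and Ube2l3 were set off in HFD-vWAT-Exos alone.

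The histone gene Hist2h2aa1 had 18.99 CPM with HFD-vWAT-Exos and 0 counts with HFD-BAT-Exos, at least 138-fold higher when 0 is read as 3 counts. It was at 18.3 CPM in the control and 51.1 with LFD-vWAT-Exos, but at 0 to 0.0888 CPM with LFD-iWAT-Exos, LFD-BAT-Exos and HFD-iWAT-Exos. Its near-identical copy Hist2h2aa2 brought the pair to 24.2 and 5.07 CPM, and all linked histone genes together were at 75.8 and 54.2 CPM. The pseudogene Gm21092 had 98.99 and 3.84 CPM, and 226 and 126 CPM with 4 linked genes. Further uncertain members of the 15 highest and lowest ratios were Gm17084 (6.33 and 1.01 CPM), Gm21982 (0.233 and 5.35 CPM) and Pagr1a (0.326 and 6.08 CPM).

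**Figure D4:**
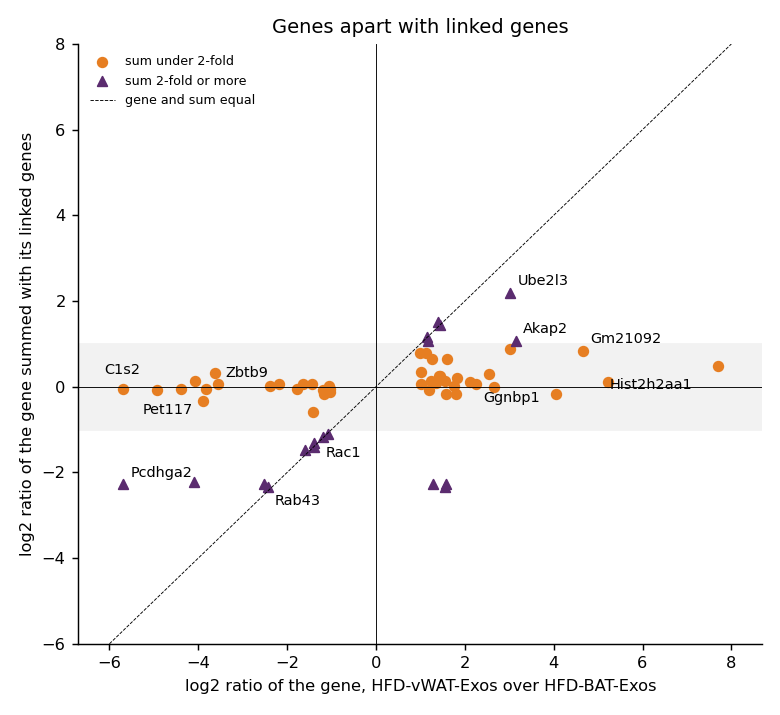
Each point is 1 of 62 genes apart that had linked genes, with its own log2 ratio of HFD-vWAT-Exos over HFD-BAT-Exos against the log2 ratio after the counts of its linked genes were added. The 44 orange points fall under 2-fold after summing (grey band), and the 18 purple triangles stay at 2-fold or more.

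The gene lists described next were read by the number of members higher and lower and by their median log2 ratio, beside the median of -0.00 and 50.2% of genes lower over all 12455. Of 37 lists, 32 had no member apart. Over these 37 and the 6 lists of cell type markers, 11 of the 941 listed genes compared were apart, against 1.66% of all genes. The differences below are therefore mostly under 2-fold. The median log2 ratio over all genes also moved with base composition, from -0.06 in the fifth of genes with the lowest GC content to 0.05 in the highest, and with exon length, from -0.04 in the shortest to 0.03 in the longest. The part of this in the list medians was not tested.

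Hypoxia response genes had the lowest median, -0.24, with 23 of 26 members lower with HFD-vWAT-Exos and none apart. Ero1l, an oxidase of disulphide formation in the endoplasmic reticulum, had 2034 and 2978 CPM and was 1.46-fold lower (interval 1.45 to 1.48). Angptl4, a secreted inhibitor of lipoprotein lipase, had 369 and 643 CPM and was 1.74-fold lower (interval 1.70 to 1.79). Nrn1 (121 and 184 CPM, uncertain through shared reads) and Hilpda, a lipid droplet protein that inhibits lipolysis (48.2 and 71.7 CPM), completed the 4 with the largest ratios. The summed level of the list was 7650 CPM with HFD-vWAT-Exos, between 7105 in the control and 7661 with LFD-BAT-Exos. With HFD-BAT-Exos it was 9701 CPM, nearer to 8641 with HFD-iWAT-Exos and 9842 with LFD-iWAT-Exos, and it was 22185 with LFD-vWAT-Exos.

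Glycolysis genes were lower in 21 of 26 members with a median of -0.15, as were 31 of 41 immediate early and MAPK feedback genes with a median of -0.15. Among the latter were Hbegf, an EGF receptor ligand (25.5 and 42.1 CPM), Fosl1, an AP-1 subunit (30.6 and 43.4 CPM, uncertain through shared reads), Ier3 (141 and 191 CPM) and Rcan1, an inhibitor of calcineurin (61.0 and 81.9 CPM). Pgk1, a glycolytic kinase that shares reads with other genes, had 1364 and 1627 CPM, and Pdk3, which blocks pyruvate dehydrogenase, had 65.5 and 81.3 CPM. Cell cycle genes were lower in 35 of 52, with a median of -0.10, including Cdk1 (27.0 and 36.5 CPM), Tk1 (8.56 and 12.02 CPM), Ttk (5.96 and 8.36 CPM) and Ccnd3 (62.5 and 86.9 CPM). None of these lists had a member apart.

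Ribosomal protein genes were lower in 38 of 41 members, with a median of -0.17. Their summed level was 11079 and 12426 CPM, and 11255 to 12482 CPM in the other 5 libraries. The 13 mitochondrially encoded genes were all higher with HFD-vWAT-Exos, with a median of 0.26, the highest of any list. mt-Nd4, mt-Nd5 and mt-Cytb, subunits of complexes I and III, had 924 against 743, 1075 against 863 and 815 against 606 CPM. Nuclear genes of oxidative phosphorylation went the other way, with 32 of 43 lower and a median of -0.05. For no mitochondrially encoded gene did either library leave the range of the other 5, but without LFD-vWAT-Exos in that range HFD-BAT-Exos lay outside it for 6 of the 13. mt-Co1 was among the 6 largest gains in CPM, from 13042 to 13863 CPM.

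Matrix genes were slightly higher with HFD-vWAT-Exos. Collagen chains were higher in 15 of 20, with a median of 0.08, and supplied 3 of the 6 largest gains in CPM. Col1a2 had 13409 and 12207 CPM, Col3a1 12065 and 11168 CPM and Col1a1 8620 and 7386 CPM. Fibronectin (Fn1) had 13292 and 12072 CPM, and complement C3 had 5451 and 4589 CPM. Contractile genes and targets of SRF and YAP were higher in 21 of 30, with a median of 0.12, led by Fhl1 (1.86 and 0.914 CPM), Myl9, a myosin light chain (21.7 and 13.1 CPM), and Acta2, smooth muscle actin (240 and 170 CPM). Acta2 ranged from 29.5 to 359 CPM in the other 5 libraries, and from 69.3 without LFD-vWAT-Exos, wider than this difference. Among the 9 lower members was Ankrd1, a YAP target, at 1.95 and 3.66 CPM. No collagen or contractile gene was apart.

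Of 23 preadipocyte and progenitor genes compared, 16 were higher and 7 lower, with a median of 0.14. Apart were 3, Dnm3os and the imprinted neighbours H19 and Igf2, beside 1.66% of all genes. This list too was chosen with earlier results known, so its share apart cannot be read as an enrichment. H19, a non-coding RNA of maternal expression, had 3.68 and 1.60 CPM and was 2.30-fold higher (interval 1.53 to 3.53). Igf2, a growth factor of paternal expression that shares reads with an antisense gene, had 21.04 and 55.9 CPM and was 2.66-fold lower (interval 2.38 to 2.97). With HFD-BAT-Exos, Igf2 had its highest level of the 7 libraries, the others being at 11.3 to 38.5 CPM. Both neighbours thus differed in opposite directions.

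Genes of fat storage and use were near equality and none were apart. Fatty acid synthesis had 9 members higher and 12 lower with a median of -0.05, triglyceride synthesis 10 and 9 with 0.00, fatty acid oxidation 7 and 21 with -0.09, fatty acid uptake 3 and 13 with -0.13, lipolysis 2 and 8 with -0.10, and cholesterol synthesis 6 and 22 with -0.11. Fasn, fatty acid synthase, had 134 CPM with HFD-vWAT-Exos and 102 CPM with HFD-BAT-Exos, 1.31-fold higher (interval 1.24 to 1.38) and above the 99.2 to 124 CPM of the other 5 (112 to 124 without LFD-vWAT-Exos). The lipid droplet coat gene Plin4 (94.5 and 71.4 CPM) and Agpat2, an acyltransferase of triglyceride synthesis (25.7 and 19.5 CPM), were likewise at their highest of the 7 libraries. Hormone-sensitive lipase (Lipe) had 13.4 and 21.3 CPM and the fatty acid carrier Fabp4 93.3 and 145 CPM. Fabp4 ranged from 73.9 to 175 CPM in the other libraries (from 78.6 without LFD-vWAT-Exos). Acss2, which makes acetyl-CoA from acetate, had 15.5 and 18.2 CPM, and Acot1, an acyl-CoA thioesterase, 10.6 and 13.3 CPM. Named genes of synthesis and storage thus lay on both sides of equality.

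Of 9 thermogenesis and brown fat genes compared, 4 were higher and 5 lower, and 21 of 30 listed stayed below 1 CPM. Ppargc1a, a coactivator of mitochondrial biogenesis, had 8.10 and 6.72 CPM, and Pdk4, induced by fatty acids, had 62.7 and 81.6 CPM. Insulin and PI3K-AKT-mTOR genes had 23 members higher and 15 lower with a median of 0.03. Irs1, an insulin receptor substrate that shares reads, had 99.4 and 79.5 CPM, and Ddit4, an inhibitor of mTORC1, had 80.9 and 98.3 CPM. No member of either list was apart.

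Inflammatory genes lay on both sides of equality. Of 29 NF-kappaB feedback and effector genes compared, 14 were higher and 15 lower, with a median of -0.00, and Tlr4 was the member apart. Ptgs2, the inducible cyclooxygenase, had 83.5 and 149 CPM and was 1.78-fold lower (interval 1.68 to 1.89), and Nos2, inducible nitric oxide synthase, had 300.1 and 361 CPM. Of 23 cytokines and chemokines compared, 8 were higher and 15 lower. Ccl11, an eosinophil attractant named here because it was the member apart, had 1.02 and 0.457 CPM. This call rests on 22 and 10 counts, with an interval of 1.02 to 5.30. The cytokine Lif had 18.1 and 28.4 CPM and was 1.57-fold lower (interval 1.38 to 1.78). Cxcl1, a neutrophil attractant, had 298 and 380 CPM, and Cxcl10, an interferon-induced chemokine, 5.07 and 3.11 CPM. Interferon-stimulated genes had 19 members higher and 30 lower, a median of -0.03 and none apart.

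The unfolded protein and stress response list was balanced, at 18 higher and 19 lower, but held Hspa5, the main chaperone of the endoplasmic reticulum. It had 549 CPM with HFD-vWAT-Exos and 970 CPM with HFD-BAT-Exos, 1.77-fold lower (interval 1.73 to 1.81). The other libraries were at 543 to 984 CPM, the control being at 566. Without LFD-vWAT-Exos, the library at 543, HFD-vWAT-Exos had the lowest level. Psat1, of serine synthesis, had 64.7 and 107 CPM. Of 39 NRF2 and antioxidant genes, 14 were higher and 25 lower, with the metallothioneins Mt1 at 339 and 517 CPM and Mt2, which shares reads, at 25.7 and 43.9 CPM. Ero1l, Eef1a1, P4hb, Spp1, Emp1 and Hsp90b1 had the 6 largest losses in CPM. Spp1 (osteopontin) had 1338 and 1802 CPM, P4hb (protein disulphide isomerase) 2213 and 2704 CPM and Eef1a1 (an elongation factor that shares reads with pseudogenes) 5502 and 6142 CPM. Hsp90b1, another chaperone of the endoplasmic reticulum, had 1887 and 2330 CPM.

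**Figure D5:**
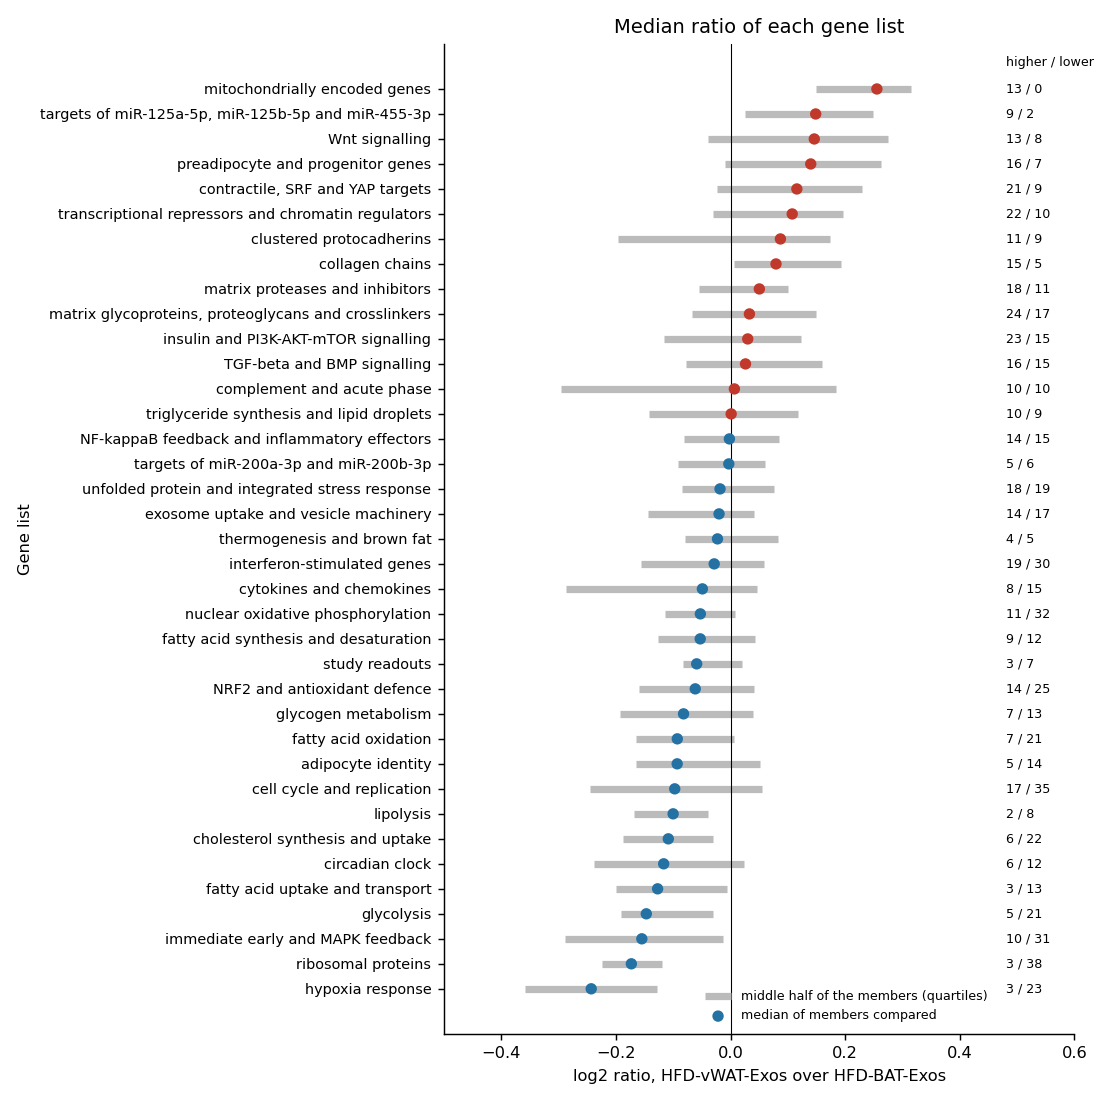
Median log2 ratio of HFD-vWAT-Exos over HFD-BAT-Exos for the compared members of 37 gene lists (points), with the quartiles of the members (bars) and the number of members higher and lower at the right. Medians run from -0.24 for hypoxia response genes to 0.26 for mitochondrially encoded genes.

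The study followed a set of genes as readouts of lipid storage, inflammation and exosome uptake, and 10 of 13 were compared, 3 higher and 7 lower with none apart. Srebf1, the regulator of fatty acid synthesis, had 63.3 and 70.1 CPM, Acaca, acetyl-CoA carboxylase (uncertain through shared reads), 44.1 and 43.0 CPM, and Cpt1a, which admits fatty acids to mitochondria, 118 and 125 CPM. Ccl2, a monocyte attractant, had 181 and 186 CPM and Il6 6.52 and 6.63 CPM, so that their ratios were 1.03-fold and 1.02-fold with intervals that included equality. Tnf had 0 counts in both libraries, Il1b 2 and 0 counts and Ucp1 0 and 4 counts, which is too few to compare. Sirpa, an inhibitory receptor, had 19.1 and 16.3 CPM, and its ligand Cd47, a signal against engulfment, 398 and 463 CPM. The paper followed CD47 as protein on exosomes and its receptor in macrophages, whereas these values are RNA of 3T3-L1 cells. HFD-vWAT-Exos had the highest Sirpa of the 7 libraries, the others being at 11.9 to 17.3 CPM.

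The study followed 5 microRNAs in these exosomes, of the families miR-200, miR-125 and miR-455. Their mature sequences from RefSeq (GRCm38.p6) are shown 5′ to 3′ with the seed, bases 2 to 8, in capitals, because the seed fixes which messenger RNAs can pair with them:
mmu-miR-200a-3p: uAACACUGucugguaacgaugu
mmu-miR-200b-3p: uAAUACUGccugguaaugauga
mmu-miR-125a-5p: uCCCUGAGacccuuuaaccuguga
mmu-miR-125b-5p: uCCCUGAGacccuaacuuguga
mmu-miR-455-3p: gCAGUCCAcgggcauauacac
The seeds of both miR-125 forms are identical, while those of both miR-200 forms differ by 1 base and pair with different sites. The genes of miR-200a and miR-200b lie together on chromosome 4, that of miR-125a on chromosome 17 and the copies of miR-125b on chromosomes 9 and 16.

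For obese mice the paper reports both miR-200 forms as higher in vWAT-Exos than in BAT-Exos, and the miR-125 and miR-455 forms as lower. Those are levels in the exosomes, which the libraries used here do not measure. Known targets of both sets were near equality and none were apart. The 11 targets of the miR-200 forms had a median log2 ratio of -0.00, with 5 higher and 6 lower, and ranged from -0.19 to 0.18. Zeb1 and Zeb2, repressors of epithelial genes and the classic targets of this family, had 148 and 148 CPM and 81.6 and 81.8 CPM. Irs2, an insulin receptor substrate, had 39.4 and 37.1 CPM and Mapk14, the kinase p38 alpha, 45.7 and 40.4 CPM. Further members were Ctnnb1 (520 and 508 CPM), Keap1 (49.6 and 48.7), Bap1 (56.6 and 64.4), Slc23a2 (79.8 and 82.7), Zfpm2 (49.8 and 44.1) and Zfp36 (69.0 and 75.5). The interval of the fold difference was 0.957 to 1.06 for Zeb1 and 0.938 to 1.07 for Zeb2, and both included equality.

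Matches of the seed were looked for in the longest annotated 3′ UTR of each gene (GENCODE M21, GRCm38, transcript strand). Sites of 30 bases are shown for the best known targets, with the 7 bases that pair with the seed in capitals:
Zeb2, miR-200b-3p, chr2:44988163-44988192, minus strand: actaccatacatCAGTATTttattattatt
Zeb2, miR-200a-3p, chr2:44988347-44988376, minus strand: aaaaattttgtaCAGTGTTaaggcctaaaa
Irs2, miR-200a-3p, chr8:10985878-10985907, minus strand: tggttctgttgtCAGTGTTctggaaatgtc
Bmf, miR-125a-5p and miR-125b-5p, chr2:118532075-118532104, minus strand: ccaccgcatgggCTCAGGGattcttactca
Vdr, miR-125a-5p and miR-125b-5p, chr15:97856965-97856994, minus strand: atgagtccattcCTCAGGGacaggtacctg
Zeb2 held 4 sites for miR-200a-3p and 5 for miR-200b-3p, and its level was the same in both libraries. Of the 11 members of the first list, 9 held a site.

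The targets of miR-455-3p and both miR-125 forms, 11 of them compared, had a median of 0.15, with 9 higher and 2 lower. Vdr, the vitamin D receptor, had 60.2 and 50.9 CPM and Bmf, a proapoptotic protein, 56.4 and 50.1 CPM, each the highest of the 7 libraries with HFD-vWAT-Exos. Tnfaip3, the NF-kappaB inhibitor A20, had 34.6 and 29.0 CPM and 4632428N05Rik (an immune checkpoint receptor) 2.33 and 1.69 CPM. Ets1, a transcription factor, had 31.6 and 39.9 CPM, and Smad4 83.0 and 84.2 CPM. The others were Stat3 (283 and 278 CPM), Trp53 (107 and 106), Bak1 (40.5 and 39.3, uncertain), Map2k7 (51.4 and 46.4, uncertain) and Ppargc1a. Lin28a and Irf4 had 0 counts in both libraries. Over the 8 members that held a site the median was 0.16.

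Over all 11469 genes compared with an annotated 3′ UTR, sets that hold a seed match were set beside the whole, with a median log2 ratio of -0.00 and 1.33% apart. The site CAGTGTT of miR-200a-3p was in 2466 genes (21.5%), with a median of -0.01 and 1.38% apart. The site CAGTATT of miR-200b-3p was in 1837 genes (16.0%), with a median of -0.02, 53.7% of them lower and 1.58% apart. The site CTCAGGG of miR-125a-5p and miR-125b-5p was in 1821 genes (15.9%), with a median of 0.02, 44.2% lower and 1.26% apart. The site TGGACTG of miR-455-3p was in 1601 genes (14.0%), with a median of 0.01 and 1.25% apart. These medians lie within the span of -0.06 to 0.05 that GC content alone showed, and 3′ UTRs with a site were longer (a median of 2257 to 2550.5 bases, against 1207 over all). A part of base composition or length in them was not tested.

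The same contrast of depots in lean mice, LFD-vWAT-Exos against LFD-BAT-Exos, had 3741 of 12579 genes apart (29.7%), as its visceral library is the one unlike all others. Of the 34 named genes apart in the obese pair, 19 were also apart in the lean pair, 11 in the same direction and 8 in the opposite one. Fam109a, Bola1, Zfp292, Ang and Akap2 were higher with vWAT-Exos in both diets, and Dnal1 and Gm608 were lower in both. The pairs share no library, but the lean one rests on the LFD-vWAT-Exos library throughout and cannot be given without it.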

How the data were processed

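RNA of 3T3-L1 cells was sequenced in 7 libraries, 1 per group. Per the paper and the submitters' processing notes, the authors used fastp for trimming, HISAT2 for mapping, StringTie for gene levels and edgeR for their comparisons. Versions and the mouse build are not given in the sources used here, and a human reference is named in the methods while the gene IDs are mouse. The library protocol marks strand, but the counting setting is not stated. The deposited count table holds raw whole-number counts per gene, not normalized. The deposited FPKM table holds values scaled by the authors to gene length and library total, and was used as an alternative. Every sample column was assigned to a labelled sample.

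Counts were scaled with TMM factors (edgeR 4.0.16, R 4.3.3), which were 1.00 for both libraries. Ratios carry a prior count of 2 and an exact Clopper-Pearson 95% interval, which takes reads as independent and covers counting error only. Reads were not marked with molecular identifiers. The calls were tested on simulated data that held counting error only, without spread between cultures or shared reads. Gene IDs were matched to GENCODE M21 (GRCm38), where 34344 of 34745 were found. In 27 rows the gene name had become a date, and the symbol was taken from the ID. 57 names occur on more than 1 ID.

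Named genes were the study's readouts and microRNA targets, the 4 members of each other list furthest from equality at 50 or more counts (fewer where fewer had them), the 15 highest and 15 lowest ratios at 100 or more counts, and the 6 largest gains and 6 largest losses in CPM. Others are marked as chosen after their values were seen. The values of 1 named gene are not reported here. The 43 lists (37 of pathways or targets and 6 of cell type markers) held 1207 symbols, of which 1206 were found. The comparison and the lists were chosen with earlier results of these data known. Alternatives were other scalings (DESeq2 1.42.0), filters, prior counts, a fold threshold of 1.5, FPKM and leaving out genes that share reads. Summing linked genes, the limit of 100 counts and the nearest-level counts and ranges without LFD-vWAT-Exos were added after the data were seen.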

Additional observations from a re-analysis of the deposited data

Results flagged for a closer look

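Among the named genes apart in both diets, 8 differed between vWAT-Exos and BAT-Exos in opposite directions in the obese and the lean pair. The log2 ratio of vWAT over BAT was 3.69 in obese and -2.43 in lean for Dnm3os, 2.01 and -1.45 for Mum1l1, and 1.16 and -1.81 for H19. It was -1.87 and 1.37 for Tlr4, -1.35 and 1.09 for Dnmt3a, and -1.17 and 1.69 for Suz12. For the protocadherin Pcdhgc3 it was -4.09 and 2.85, and for the C1s2 ID absent from the reference -5.70 and 5.21. These last reversals were of single IDs and were absent from the locus sums. With vWAT-Exos and BAT-Exos, both C1s2 IDs summed to 106 and 109 CPM in obese and 54.7 and 93.9 CPM in lean. The gamma protocadherins summed to 188 and 903 CPM in obese and 283 and 535 CPM in lean, lower with vWAT-Exos in both. The difference between the diets was not tested, since each pair has 1 library a side. The lean pair includes LFD-vWAT-Exos, the library unlike all the rest, and its part in these signs was not tested.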

How the results depend on the processing

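The counts of genes apart stayed within 1.5 times of 207 (112 higher, 95 lower) with scaling by total counts, DESeq2 size factors, prior counts of 0.5 and 5, without genes that share reads, and with counts summed over overlapping genes (164). The number of calls followed the filters and thresholds. It was 533 (297 higher, 236 lower) with no filter on low values, 79 (36 and 43) at a minimum of 10 CPM, 596 (318 and 278) at a fold threshold of 1.5, 51 (28 and 23) with FPKM plus 1, and 106 (49 and 57) with 100 or more counts. At 10 CPM and at 100 counts the lower genes outnumbered the higher ones. None of the called ratios of named genes changed sign. Of the named genes, 38 left their counting interval with FPKM plus 1, which draws low values together, and 1 with a prior count of 5. Of the 37 list medians, only that of the complement list left its interval, at -0.30 without genes that share reads. The share of genes higher was 54.1% of those apart, and 54.8% and 53.4% with the other scalings. No paired analysis was possible because each group has 1 library and the labels link no animals or cultures across groups. No library could be left out, as each side has 1.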
